A study of Mus musculus with 15 samples.

Results

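Of the 24132 H3K4me3 summits that the WT amygdala list placed on chromosomes 1 to 19 and X, 557 lay at the promoters of long intergenic non-coding RNA (lincRNA) genes and at no protein-coding promoter. They made up 2.31% of the list (95% Wilson interval, 2.13 to 2.51). Members were chosen by position alone. A summit qualified when it lay within 1 kb of a transcription start site (TSS) of a gene that GENCODE M21 types as lincRNA, and no TSS of a protein-coding gene lay within 1 kb. The score of a summit played no part in the choice. Another 305 summits lay within 1 kb of a lincRNA TSS and of a coding TSS, and these were counted with the coding promoters.

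The list came from adult male mice, F1 hybrids of 129S1/SvImJ and C57Bl/6 parents. The WT animals carried intact Kmt2a, which encodes an H3K4 methyltransferase, and intact Kdm5c, which encodes an H3K4me2/3 demethylase. The series held 11 H3K4me3 and 4 input samples from WT, Kmt2a-HET, Kdm5c-KO and double-mutant amygdalae, with 20000 nuclei per reaction, and the authors deposited 1 list for the 2 WT mice together. The list has no replicate values, so nothing was tested between mice or genotypes, and each interval covers counting error over summits or genes. Whole amygdala nuclei were used, so a mark carried by few cells and a mark that is weak in many cells cannot be told apart. Promoters of the neuronal genes Snap25, Rbfox3, Slc17a7 and Gad1 had scores of 104.8 to 266.8. The astrocyte genes Gfap and Aqp4 scored 29.2 and 56.8, and the oligodendrocyte gene Mbp scored 182.9. No summit lay at the promoters of Alb, Ins2, Myh6 and Krt5, which mark liver, pancreatic islet, heart and squamous epithelium.

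H3K4me3 is a histone mark of nucleosomes that flank the start sites of active or poised genes, and it is densest at promoters rich in CpG dinucleotides. lincRNA genes are transcribed by RNA polymerase II, are often spliced and lie apart from coding genes. Some act as RNAs in the nucleus, some are hosts from which microRNAs or small nucleolar RNAs (snoRNAs) are cut, and for most no function is known.

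The promoters behind the results are shown first, each from 150 bases before to 50 bases after the TSS nearest its summit, read 5′ to 3′ along the gene on GRCm38, with every CG in capitals. The first set holds promoters with high scores and few CpGs around the summit. Gm37027 had the highest score of all members, and Gm3764 and A230006K03Rik were among the 5 highest in the lowest group of CpG content. The printed window of Gm37027 contained 0 CG, that of A230006K03Rik contained 2 and that of Gm3764 contained 11.
Gm37027 (chr1:195018193-195018392, minus strand): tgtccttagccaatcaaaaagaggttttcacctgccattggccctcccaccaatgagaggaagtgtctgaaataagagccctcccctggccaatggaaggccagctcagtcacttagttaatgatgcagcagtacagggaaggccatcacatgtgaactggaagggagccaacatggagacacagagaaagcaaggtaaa
Gm3764 (chr3:88207162-88207361, plus strand): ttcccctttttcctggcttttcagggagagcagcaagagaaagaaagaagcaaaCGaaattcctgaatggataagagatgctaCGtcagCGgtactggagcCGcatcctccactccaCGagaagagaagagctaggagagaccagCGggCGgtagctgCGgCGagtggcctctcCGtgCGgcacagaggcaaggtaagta
A230006K03Rik (chr7:61311664-61311863, minus strand): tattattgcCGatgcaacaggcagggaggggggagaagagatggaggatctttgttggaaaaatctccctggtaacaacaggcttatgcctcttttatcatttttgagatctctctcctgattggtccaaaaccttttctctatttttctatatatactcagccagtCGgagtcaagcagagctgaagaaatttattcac

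The second set holds listed genes with known names or roles. Lncpint, Snhg6 and Miat contained 15, 20 and 17 CG in the printed window. C130071C03Rik, which hosts Mir9-2, contained 6, and the imprinted gene Meg3 contained 8.
Lncpint (chr6:31218173-31218372, minus strand): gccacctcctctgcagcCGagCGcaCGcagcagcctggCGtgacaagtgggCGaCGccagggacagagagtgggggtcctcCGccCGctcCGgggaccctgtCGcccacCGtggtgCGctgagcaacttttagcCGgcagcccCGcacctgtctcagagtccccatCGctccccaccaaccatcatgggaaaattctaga
Snhg6 (chr1:9944054-9944253, minus strand): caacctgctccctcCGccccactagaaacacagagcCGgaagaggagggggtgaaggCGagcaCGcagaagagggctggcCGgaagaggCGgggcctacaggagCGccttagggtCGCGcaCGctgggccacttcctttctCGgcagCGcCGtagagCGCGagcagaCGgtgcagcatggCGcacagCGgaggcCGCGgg
Miat (chr5:112228592-112228791, minus strand): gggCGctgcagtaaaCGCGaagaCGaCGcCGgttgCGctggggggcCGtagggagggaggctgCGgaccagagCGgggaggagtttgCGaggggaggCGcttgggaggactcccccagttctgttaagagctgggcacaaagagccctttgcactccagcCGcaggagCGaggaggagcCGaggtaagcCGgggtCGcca
C130071C03Rik (chr13:83721231-83721430, plus strand): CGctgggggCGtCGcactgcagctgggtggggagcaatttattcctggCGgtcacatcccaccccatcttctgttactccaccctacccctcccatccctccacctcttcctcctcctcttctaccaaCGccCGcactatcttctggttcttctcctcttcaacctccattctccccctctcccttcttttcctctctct
Meg3 (chr12:109540857-109541056, plus strand): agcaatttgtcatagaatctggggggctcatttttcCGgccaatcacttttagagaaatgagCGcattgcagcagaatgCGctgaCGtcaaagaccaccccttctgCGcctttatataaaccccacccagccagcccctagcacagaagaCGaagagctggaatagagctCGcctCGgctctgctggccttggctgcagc

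The deposited score of a summit is read here as −log10 of its q-value, the false discovery rate of the peak, so that a higher score is a more significant enrichment over input. It is not a level of the mark per nucleosome. Members had a median score of 31.4 (order-statistic 95% interval, 26.1 to 41.8), with quartiles of 11.1 and 114.7. The 15909 summits at coding promoters had a median of 172.5 (170.7 to 174.7). A coding promoter summit scored higher than a member in 75.6% of all pairs. The 6877 summits with no annotated TSS within 1 kb were lower, with a median of 11.3 (11.1 to 12.1), and exceeded a member in 32.9% of pairs. The 415 summits at other long non-coding promoters, such as antisense genes and processed transcripts, had a median of 36.6 (28.7 to 44.9). They exceeded a member in 50.9% of pairs, and the intervals of these 2 medians overlapped.

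Members were spread over the whole range of scores. Below a score of 10 lay 127 members, or 22.8% (19.5 to 26.5), against 7.25% of coding promoter summits. Above 150 lay 107 members, or 19.2% (16.2 to 22.7), against 57.8% of coding promoter summits and 5.10% of summits without a TSS nearby. When the whole list was cut into 10 bands of about equal size by score, members made up 4.14% of the band from 10.3 to 22.4 and 4.03% of the next. They made up 0.461% of the band from 213.4 to 238.1 and 0.966% of the highest band, which held 24 members.

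**Figure D1:**
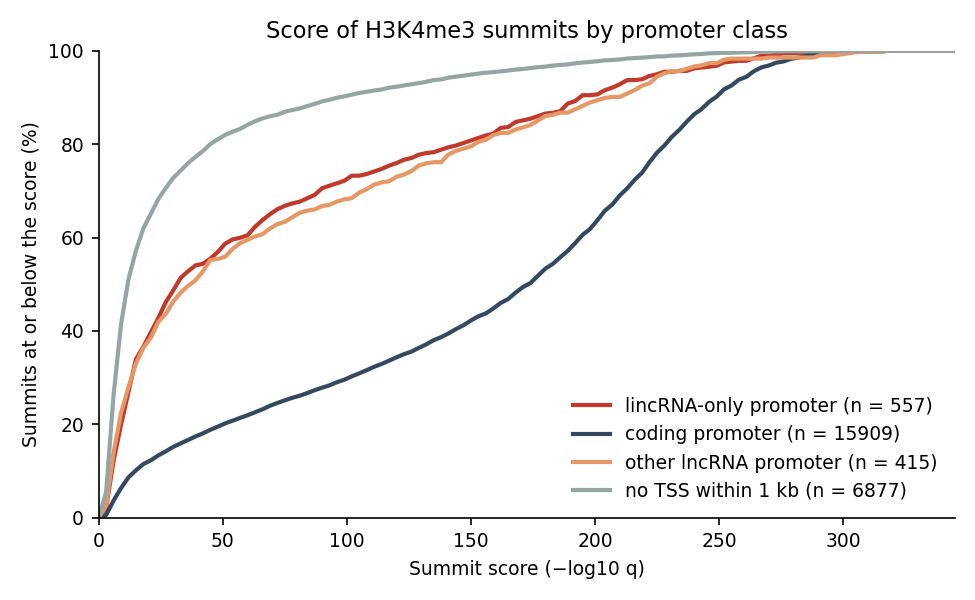
Cumulative share of summits (%) against summit score (−log10 q) for lincRNA-only promoters, coding promoters, other long non-coding promoters and summits with no TSS within 1 kb. The lincRNA-only curve (median 31.4) runs beside that of the other long non-coding promoters (36.6), between the summits without a TSS (11.3) and the coding promoters (172.5).

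The 10 highest members were led by Gm37027 (ENSMUSG00000104077), a predicted gene whose promoter is printed above. Its summit on chromosome 1 at 195017841 scored 317.4, higher than 99.95% of the list. It lay 401 bp downstream of the TSS, past the annotated end of the short gene, and 51273 bp from the TSS of Cd46. A TSS of a processed transcript also lay within 1 kb of this summit, as it did at the Gm26734 summit below. Which start such a summit belongs to was not tested. Gm16386 on chromosome 17 followed with 296.3, and Lncpint, a p53-induced lincRNA, with 284.3 at a summit 60 bp upstream of its TSS. Mir670hg, Gm26734 and 1700020I14Rik scored 274.6, 274.4 and 270.7. 1810058I24Rik and Gm44066 both scored 266.8, 4632415L05Rik scored 264.9 and 2810405F17Rik 263.0. 1810058I24Rik has a curated RefSeq mRNA starting within 1 kb of the summit, so the annotations disagree on whether it is non-coding. A RefSeq mRNA started within 1 kb of 19 of the 557 members. At 11 of these it was an mRNA of the lincRNA gene itself, as at Gm32856 (207.2), Gm46430 (205.1) and Gm5165 (204.0), and at the other 8 an mRNA of another gene, such as Cplx2 at Gm48623 (188.8). The 5 lowest members were Gm29418 at 1.65, Gm47733 at 1.95, Gm13403 at 2.03, Gm13661 at 2.096 and Gm10384 at 2.42.

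CpG content was measured over 500 bp either side of the summit, as the observed number of CpGs over the number expected from the C and G content. A window was called CpG-rich at a ratio of 0.6 or more with at least 50% GC. By this measure 132 members were CpG-rich, or 23.7% (20.4 to 27.4). The share was 62.9% at coding promoter summits, 26.5% at other long non-coding promoters and 12.9% at summits with no TSS nearby. CpG-rich members had a median score of 123.6 (98.7 to 147.9) and CpG-poor members 21.6 (17.8 to 26.0). The coding promoters had 190.9 and 101.7. Within CpG-rich summits a coding promoter scored higher than a member in 66.8% of pairs, and within CpG-poor summits in 69.5%, so that both shares lay below the 75.6% over all pairs and above 50%.

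With members divided into 4 groups of equal size by CpG ratio, their median scores were 14.3, 16.5, 45.4 and 117.0 from the lowest to the highest group. Coding promoter summits in the same ranges had medians of 17.5, 70.3, 167.0 and 190.9. In the lowest range, where the ratio was at most 0.322, the coding median lay within the interval of the member median, 11.3 to 21.2. In the 3 higher ranges it lay above the member interval. Across the 557 members the score and the CpG ratio had a Spearman correlation of 0.458 and a Pearson correlation of 0.439, and across the coding promoter summits these were 0.300 and 0.375. These values describe summits of 1 list, which share its libraries and depth, and base composition can also bear on how many reads a window yields.

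**Figure D2:**
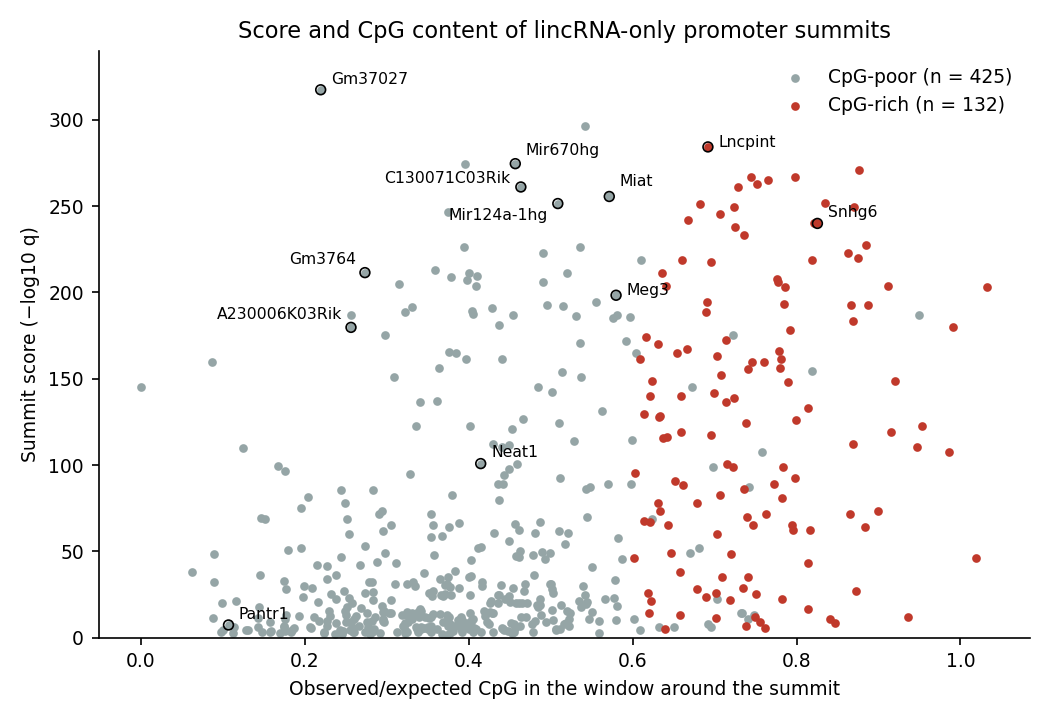
Score (−log10 q) of each of the 557 members against the observed/expected CpG ratio around the summit, with CpG-rich members in red, CpG-poor members in grey and 12 named genes ringed. CpG-rich members have a median of 123.6 and CpG-poor members of 21.6, and Gm37027 has the highest score at a ratio of 0.219.

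Some members with little CpG content around the summit still scored high. In the lowest group by CpG ratio, the 5 highest were Gm37027, Gm3764 with 211.5, Gm46430 with 205.1, Gm47467 with 187.2 and A230006K03Rik with 179.8. Their ratios were 0.219, 0.273, 0.315, 0.257 and 0.256. Gm3764 is the host of Mir9-1, and A230006K03Rik lay on chromosome 7 at a GC content of 37.5%. The Gm3764 summit lay 521 bp downstream of the TSS, so the 500 bp either side of it left the TSS out. The printed promoter window of Gm3764 contained 11 CG. In all, 55 of the 425 CpG-poor members scored above 150, or 12.9% (10.1 to 16.5), against 52 of the 132 CpG-rich members, or 39.4% (31.5 to 47.9).

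The summits were densest at the same distance from the TSS as those of coding genes, and a slightly smaller share lay downstream. Of the members 414, or 74.3% (70.5 to 77.8), lay downstream of the nearest lincRNA TSS, against 79.6% (79.0 to 80.3) of coding promoter summits. The median position was +149 bp (quartiles, −6 and +319 bp), against +170 bp (+49 and +329 bp) for coding promoters. Within 200 bp of the TSS lay 46.0% of members (41.9 to 50.1) and 45.5% of coding promoter summits. Within 500 bp the shares were 80.8% (77.3 to 83.9) and 84.9%. Members above a score of 150 lay downstream in 82.2% (73.9 to 88.3) of cases, and members below 10 in 70.9% (62.4 to 78.1), with overlapping intervals.

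**Figure D3:**
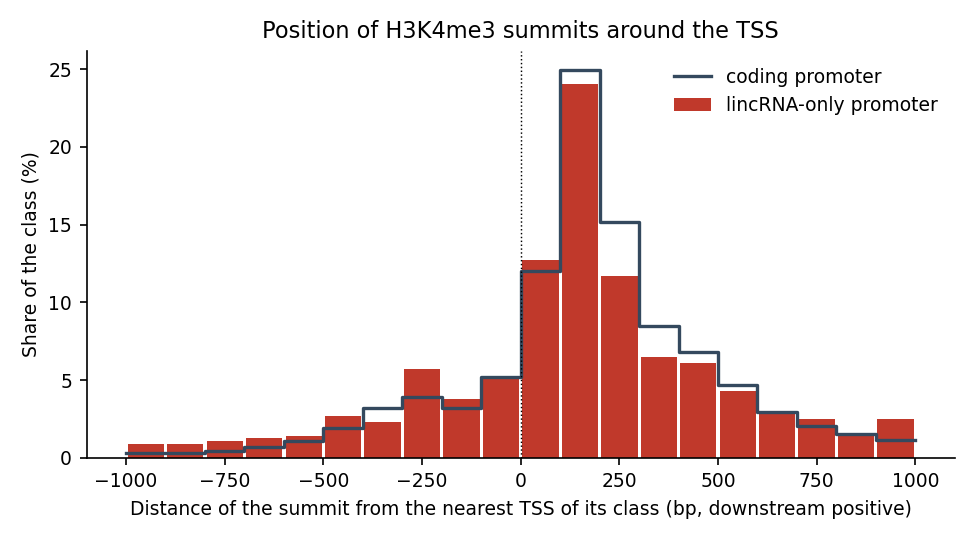
Share of summits (%) in bins of 100 bp by distance from the nearest TSS (bp, downstream positive), for members (red bars) and coding promoter summits (blue line). The highest bin of both lies 100 to 200 bp downstream, with 24.1% of members and 24.9% of coding promoter summits.

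Just inside the 1 kb limit to a lincRNA TSS were summits at Gm9915 (996 bp, score 10.9), Gm45889 (984 bp, 133.1) and Gm35618 (977 bp, 11.9). Just outside were those at Gm48847 (1011 bp, 6.54), Gm47725 (1040 bp, 32.5) and Gm26798 (1055 bp, 2.84). Nearest to a coding TSS among members were Gm27042, 1133 bp from Aldh18a1 with a score of 3.63, Gm48488, 1212 bp from Gas1 with 112.4, and Gm20063, 1374 bp from Lrfn5 with 71.7. Kept out by a coding TSS at 996, 978 and 931 bp were summits at Gm17102 (6.20), 4930511A02Rik (6.20) and Gm10605 (45.7).

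Seen from the genes, 535 of the 5305 GENCODE lincRNA genes on these chromosomes had a member summit, which is 10.1%. Such genes are called marked here. A further 271 lincRNA genes, or 5.11%, had a promoter summit shared with a coding TSS only, and 4499 had none. Of 21755 coding genes, 14193 had a promoter summit, or 65.2%. Marked genes had a median length of 10347 bp and the others 7350 bp.

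The share of marked genes differed with how a gene is annotated. It was 20.8% (15.7 to 27.1) among the 192 genes with a symbol of their own, 12.7% among clone-named Rik genes, 8.89% among predicted Gm genes and 8.77% among genes named by a clone accession. Genes with 1 transcript were marked in 7.44% of cases (6.68 to 8.28), those with 2 or 3 in 16.8% and those with 4 or more in 29.9% (24.2 to 36.2). A gene with more transcripts offers more start sites to the rule. With only the outermost TSS of each gene the shares were 7.44%, 14.8% and 23.1% (18.01 to 29.1), in the same order. Genes whose best transcript had the highest support level were marked in 12.5% (11.1 to 14.0) and those at the lowest level in 6.25% (4.90 to 7.95).

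CpG content at the outermost TSS separated the genes further. Of 352 lincRNA genes with a CpG-rich outermost TSS, 31.5% (26.9 to 36.6) were marked and 52.3% had only a summit shared with a coding gene, which left 16.2% with neither. Of 4953 genes with a CpG-poor TSS, 8.56% (7.81 to 9.37) were marked. Marked genes with a CpG-rich TSS had a median best score of 139.0 and those with a CpG-poor TSS of 26.4. By chromosome the share ran from 6.14% (4.05 to 9.20) on chromosome 8 to 16.5% (12.2 to 21.8) on chromosome 17.

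**Figure D4:**
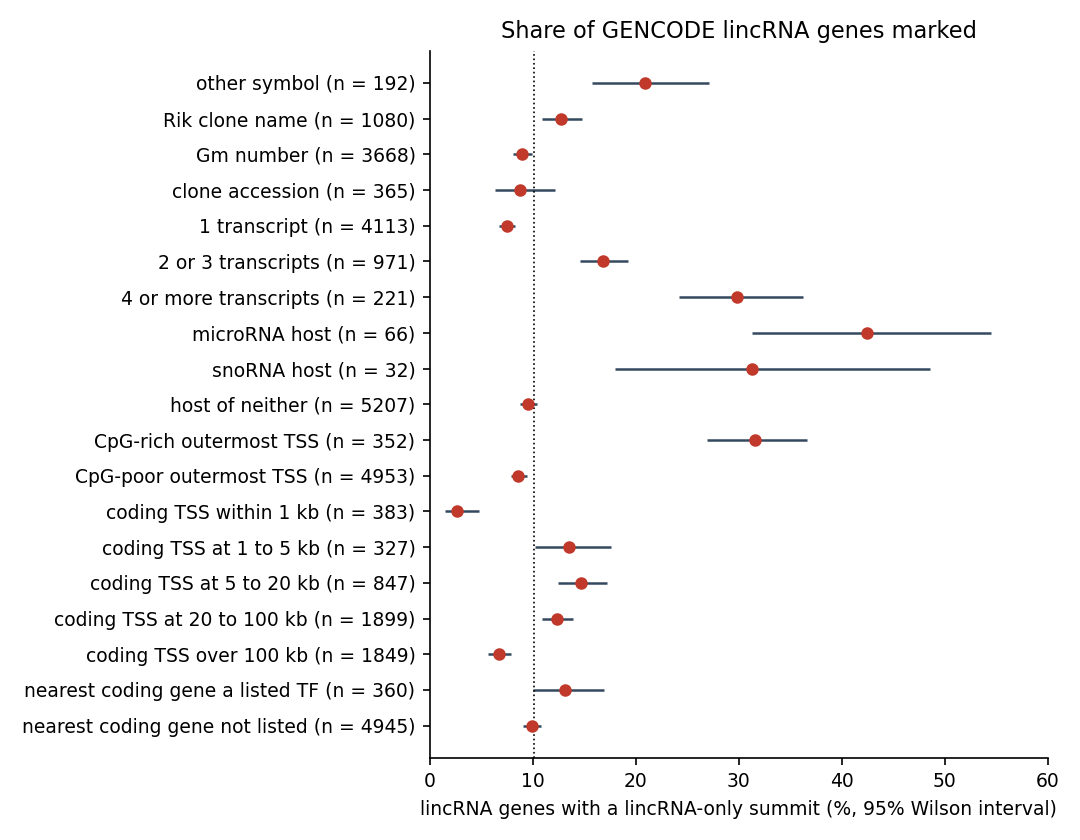
Share of GENCODE lincRNA genes with a member summit (%, points) with 95% Wilson intervals (bars), by name, number of transcripts, hosted small RNA, CpG content of the outermost TSS, distance to the nearest coding TSS and nearest coding gene. The dotted line is the 10.1% over all lincRNA genes, and microRNA hosts (42.4%) lie farthest above it.

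MicroRNA hosts were marked more often than other lincRNA genes. A microRNA is cut from a longer primary transcript, which for many microRNAs is that of the host gene. Of 66 lincRNA genes that contain an annotated microRNA on their strand, 28 were marked, or 42.4% (31.2 to 54.4), against 9.55% (8.78 to 10.4) of the genes that host neither a microRNA nor a snoRNA. Their best scores had a median of 170.4 (116.4 to 211.5), against 31.5 (26.6 to 43.5), and 18 of the 28 exceeded 150. Hosts were also longer, with a median of 22274 bp against 7457 bp. A CpG-rich outermost TSS was found at 14 of the 66 microRNA hosts and at 332 of the 5207 genes that host neither. Whether hosts were marked more often at equal CpG content was not tested. With only the outermost TSS of each gene counted, 34.8% of hosts (24.5 to 46.9) and 9.01% of the other genes were marked. Of the 32 hosts with 1 transcript, 8 were marked, or 25% (13.3 to 42.1).

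The mature sequences carried by marked hosts are printed from RefSeq (GRCm38.p6), 5′ to 3′, with the seed, bases 2 to 8, in capitals. The seed is the stretch that pairs with target mRNAs. The 6 seeds printed here all differ.
miR-9-5p: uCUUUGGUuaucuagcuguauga
miR-129-5p: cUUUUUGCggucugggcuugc
let-7a-5p: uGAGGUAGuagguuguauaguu
miR-135a-5p: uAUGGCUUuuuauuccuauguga
miR-155-5p: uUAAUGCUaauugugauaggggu
miR-142a-3p: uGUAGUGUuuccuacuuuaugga

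Every lincRNA host of a miR-9, miR-124 or miR-129 gene was marked. miR-9 is known for its part in neural progenitors and neurons, and its precursors Mir9-1, Mir9-2 and Mir9-3 give the same mature miR-9-5p. All 3 lincRNA hosts were marked. C130071C03Rik on chromosome 13, host of Mir9-2, scored 261.1 at a summit 387 bp downstream of its TSS and 145.4 at another. Gm3764 on chromosome 3, host of Mir9-1, scored 211.5, 152.3 and 4.004 at 3 summits. Mir9-3hg on chromosome 7 scored 204.0 and 25.6. miR-124 is enriched in neurons, and its hosts Mir124a-1hg and Mir124-2hg scored 251.5 and 226.6. Mir670hg on chromosome 2 contains Mir129-2 and scored 274.6 at 163 bp downstream of a TSS, and Gm3294, host of Mir129-1, scored 161.3. Both give miR-129-5p.

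Other marked hosts carried microRNAs found in many tissues. 6720427I07Rik, which contains the let-7 genes Mirlet7a-1, Mirlet7d and Mirlet7f-1, scored 249.5. Gm49317, which contains Mir100, Mirlet7a-2 and Mir125b-1, scored 85.6. Rmst, a neural lincRNA that contains Mir135a-2, scored 175.6, E130102H24Rik with Mir101a 211.5 and Gm20732 with Mir30d 179.8. Mir17hg, the host of a cluster tied to cell growth, scored 71.7. The hosts of immune and blood cell microRNAs were lower, with 27.4 at Mir155hg and 13.2 at Mir142hg. The last 2 values lay below the median of all members. So did those of the hosts Smkr-ps with 26.1, Gm36283 with 24.9 and 6030407O03Rik, which contains Mir6351, with 15.4. Low scores were therefore not limited to the 2 hosts named, and a link to cell type was not tested.

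Of the 38 hosts without a member summit, 4 had a summit shared with a coding gene and 34 had none. The 34 included hosts of microRNAs known from other organs. Gm28653 carries Mir206 and Mir133b of skeletal muscle, 4631405K08Rik carries Mir205 of epithelia, and Gm12082 carries Mir216a and Mir217 of the pancreas. AC157910.3, host of the liver microRNA gene Mir122, and Gm2044, host of Mir202, also had none. Yet hosts of microRNAs that brain cells make were among them too, with A430106G13Rik (Mir181b-1), C78859 (Mir138-2) and the imprinted host Mirg. The mature forms at 3 of these loci are printed in the same way, for comparison with those at marked hosts.
miR-206-3p: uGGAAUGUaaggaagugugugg
miR-133b-3p: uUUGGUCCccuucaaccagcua
miR-205-5p: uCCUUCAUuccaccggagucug
miR-216a-5p: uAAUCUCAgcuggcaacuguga
miR-217-5p: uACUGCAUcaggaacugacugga

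Introns of known snoRNA hosts release guides for the modification of ribosomal RNA. Here a host was any lincRNA gene that contains an annotated snoRNA on its strand, and many of these snoRNAs have only a predicted name. Whether they are released was not tested. The 32 hosts had a median length of 55472 bp, against 7457 bp for genes that host neither. Marked were 10 of the 32, or 31.3% (17.95 to 48.6), against 9.55% of genes that host neither. The best scores of the 10 ran from 8.07 to 240.0 with a median of 77.7 (13.2 to 240.0), and 4 of the 10 exceeded 150. Snhg6 and Epb41l4aos both scored 240.0, Snhg12 205.9 and 2700038G22Rik 159.8. The other 6 were 9430037G07Rik with 117.5, Gm48508 with 37.9, 6530403H02Rik with 35.5, Gm8239 with 29.95, Gm10754 with 13.2 and A830008E24Rik with 8.07. Snhg20, listed as a snoRNA host, holds an annotated microRNA and no gene typed as snoRNA in GENCODE M21. It was therefore counted with the microRNA hosts, and it scored 217.9. A gene typed as small Cajal body RNA (scaRNA), a type not counted as snoRNA here, started within 1 kb of its summit. Of other listed snoRNA hosts, Snhg10 had only a summit shared with its coding neighbour Glrx5, with a score of 246.4, and Snhg18 had none within 1 kb. The summit nearest to Snhg18 was 1733 bp away and scored 141.9, so its absence rests on the window.

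Of 98 non-coding genes listed by name, 40 are lincRNA genes in GENCODE M21. A member summit was found at 27 of them, a shared summit at 1 and no summit at 12, with a median best score of 175.6 over the 27. The list was made with earlier results of these data known and favours well-studied genes, so its count is a description beside the 10.1% of all lincRNA genes.

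**Figure D5:**
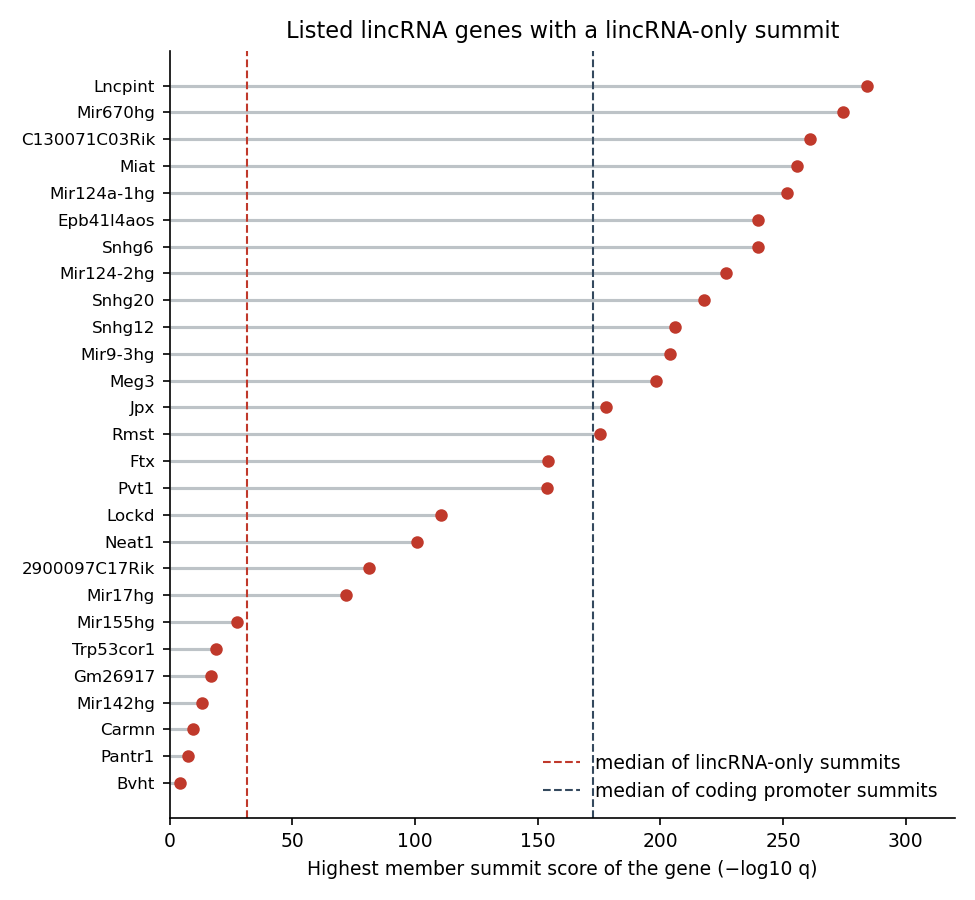
Highest member summit score (−log10 q) of each of the 27 listed lincRNA genes with a member summit. Dashed lines mark the medians of lincRNA-only summits (31.4) and coding promoter summits (172.5). Lncpint is highest with 284.3, 14 of the 27 lie at or above the coding median, and 7 lie below the lincRNA-only median.

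Among abundant nuclear RNAs, Miat, a neuronal nuclear lincRNA, scored 255.6 at a summit 217 bp downstream of its TSS on chromosome 5. Neat1, the scaffold of paraspeckles, scored 100.9, and its summit lay 973 bp downstream, near the limit of the window. Malat1, a nuclear speckle RNA, had no summit within 1 kb. Its nearest summit was 1323 bp away and scored 313.7, so the absence of a member there rests on the window. 2900097C17Rik had summits of 81.1 and 22.4. Gm26917 scored 16.7 at 39843216 on chromosome 17. AY036118, with a summit at 39847850 that scored 46.0, was the only member with an annotated ribosomal RNA start within 1 kb, and values at such repeated sequence are uncertain.

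Of the imprinted lincRNA genes, Meg3, which is expressed from the maternal chromosome, scored 198.4 at 235 bp downstream of its TSS on chromosome 12, with a second summit of 3.45. Mirg, in the same imprinted cluster, had its nearest summit 2071 bp away. H19, an RNA of embryonic tissue, had its nearest summit 2365 bp away. In the X inactivation centre of these males, Jpx scored 178.0 and Ftx 154.4, and Xist, which coats the inactive X of females, had its nearest summit 9801 bp away.

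Of the 7 neural and developmental lincRNA genes listed, 2 had a member summit and 5 had no summit, and 84.8% of all lincRNA genes had none. Rmst scored 175.6. Pantr1, next to Pou3f3, had member summits of 7.45 and 6.52, but its nearest summit, 267 bp away and shared with a coding TSS, scored 140.1. Hotair and Hottip of the Hox clusters, Paupar, Lhx1os and Otx2os1 had none within 1 kb. The nearest summits to Hotair and Hottip lay 51730 and 41180 bp away, and those to Paupar, Lhx1os and Otx2os1 lay 7732, 2193 and 1919 bp away. Of the growth-related genes, Lncpint scored 284.3, Pvt1 next to Myc 154.0 and Lockd next to Cdkn1b 110.7. Trp53cor1, a p53 target next to Cdkn1a, scored 18.8, and the cardiovascular lincRNAs Carmn and Bvht scored 9.39 and 4.14. Lncenc1 had no summit within 1 kb, and its nearest lay 1145 bp away with a score of 25.1.

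Most members lay far from coding genes, as did most lincRNA genes. The nearest coding TSS was over 20 kb away for 378 members, or 67.9% (63.9 to 71.6), and over 100 kb away for 130. It was at 1 to 5 kb for 55, at 5 to 20 kb for 124 and at 20 to 100 kb for 248. Median scores in these 4 classes, from near to far, were 44.1 (14.9 to 71.7), 38.5 (26.0 to 67.1), 30 (24.6 to 49.0) and 24.9 (14.8 to 35.5), and neighbouring intervals overlapped. The CpG-rich share was 30.9%, 32.3%, 23.4% and 13.1%. Measured from the outermost TSS, 1899 of all 5305 lincRNA genes had the nearest coding TSS at 20 to 100 kb and 1849 over 100 kb away. The distance of members is therefore not a trait of marked genes alone. Among all lincRNA genes, 13.5% (10.2 to 17.6) were marked with a coding TSS at 1 to 5 kb and 6.65% (5.604 to 7.88) with none within 100 kb.

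The nearest coding gene usually had a promoter summit of its own, and a higher one. At 1 to 5 kb, 49 of 55 nearest coding genes had a summit, or 89.1% (78.2 to 94.9), against 65.2% of all coding genes. Over 100 kb the count was 92 of 130, or 70.8% (62.4 to 77.9). The score of a coding gene was its highest within 1 kb of any of its TSSs, set against a single member summit. On this measure the member scored higher in 9 of the 49 pairs at 1 to 5 kb and in 21 of 95 at 5 to 20 kb. It did so in 28 of 194 pairs at 20 to 100 kb and in 8 of the 92 over 100 kb. Of the 55 near members 28 were divergent from the coding gene, 15 lay on the same strand and 12 were convergent, with medians of 43.8, 70.1 and 11.8.

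Named near pairs show both orders. Epb41l4aos scored 240.0 and its neighbour Epb41l4a 137.0. Gm47204 scored 209.5 and Bcl9l, a Wnt pathway cofactor, 261.1. Gm40190 scored 205.9 beside Bcar3 with 89.2, and 2610037D02Rik scored 204.0 beside Arid2, a chromatin remodelling subunit, with 147.2. Gm49782 and 5830454E08Rik both scored 194.6, beside Suox with 138.4 and the ribosomal protein gene Rpl14 with 179.8. In 5 of these 6 pairs the lincRNA summit was the higher, but the pairs were named for high lincRNA scores.

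Among the members farthest from a coding TSS, C130073E24Rik on chromosome 8 lay 2072609 bp from Tenm3 and scored 192.1, and 9330185C12Rik on chromosome 1 lay 1721326 bp from Cntnap5a and scored 5.10. On chromosome 7, A230006K03Rik (179.8), Gm44643 (68.6 and 2.84) and B230209E15Rik (145.4 and 36.6) had the imprinted genes Ndn or Snrpn as their nearest coding genes, at 731508 to 1035082 bp. Gm32647 on the same chromosome lay 962950 bp from Fam181b and scored 73.2.

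Genes with several members differed in how far apart the scores lay. Of 38 genes with 2 or more member summits, 3 had 3. At Mir670hg these scored 274.6, 32.6 and 22.4, and the first lay at another start site than the other two. At Gm20383 on chromosome 6 the 3 summits scored 13.6, 10.7 and 3.63. Gm3764 was given above. Among genes with 2, 2610035D17Rik, whose nearest coding genes are Sox9 and Slc39a11, scored 233.2 and 124.4, and Gm37494 scored 187.2 and 159.8. The last gene has the start of a RefSeq mRNA, Gm33989, at both summits.

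Neighbours that encode transcription factors were looked at by a fixed pattern of gene names (Sox, Pou, Fox, Nr2f and the like). Of marked lincRNA genes 8.79% (6.67 to 11.5), or 47, had such a gene as the nearest coding gene, and of the other lincRNA genes 6.56% (5.89 to 7.30), with overlapping intervals. The best scores of the 47 had a median of 20.9, against 42.0 for marked genes next to other coding genes. The pattern leaves out some transcription factor genes, such as Atf3 near D730003I15Rik and Myc near Pvt1, and these counted with the other coding genes. The 2 medians therefore do not compare all transcription factor neighbours with the rest. The highest of the 47 were C130071C03Rik near Mef2c with 261.1, Gm9866 near Sox11 with 212.9 and Gm3764 near Mef2d with 211.5. Only these 3 of the 47 exceeded 150. Low scores were found at Gm26644 near Pax2 with 4.75 and at Gm29418 near Six2 with 1.65.

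Short motifs were counted from 250 bases before to 50 after the TSS on both strands, at 535 distinct member promoters. Member promoters were taken at the TSS nearest the summit. The unmarked lincRNA promoters and the coding promoters were taken at the outermost TSS of each gene. The groups therefore differ in how the start site was chosen, and the effect of this on the shares was not tested. The GC box GGGCGG was present at 27.5% (23.9 to 31.4), against 9.94% of unmarked lincRNA promoters, 43.4% of all coding promoters and 59.4% of marked ones. At CpG-rich members it was at 58.3%. The TATA box TATAAA was at 10.1% (7.82 to 12.9) of member promoters, 17.3% (16.2 to 18.4) of unmarked lincRNA promoters, 12.7% of all coding promoters and 7.47% of marked ones. The ETS core CCGGAAG was at 8.97% (6.83 to 11.7), against 3.46%, 10.9% and 15.3%. The cAMP response element TGACGTCA was at 2.99% (1.85 to 4.802), 16 promoters, against 0.734% (0.528 to 1.02) of unmarked lincRNA, 2.46% of all coding and 3.22% of marked coding promoters.

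CCAAT was at 37.8% of members, 38.0% of unmarked lincRNA promoters and 38.9% of all coding promoters. The E-box CACGTG was at 9.35% (7.16 to 12.1), 5.597% (4.98 to 6.29) and 7.81% (7.47 to 8.18), the NRF1 core GCGCATGC at 1.495% (0.760 to 2.92), 1.05% (0.796 to 1.38) and 3.40% (3.17 to 3.65) and the AP-1 site TGAGTCA at 5.23% (3.65 to 7.46), 6.81% and 4.55%. Each motif was counted on its own, also where matches overlapped, and the GC box, the cAMP response element, the ETS core, the E-box and the NRF1 core each contain a CpG. The Meg3 window held a TATA box, a CCAAT box and the cAMP response element, Mir9-3hg and Pvt1 held the cAMP response element, and Mir670hg and Neat1 held a TATA box. Snhg6, Snhg20 and Epb41l4aos held the ETS core, which Gm46430 and 2900097C17Rik also held. A match of letters is a description and does not show that a factor binds there.

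Other annotation at the members was limited. A TSS of a further gene type lay within 1 kb of 57 members, or 10.2% (7.98 to 13.0), most often a processed transcript (15 members) or a miscellaneous RNA (14). Inside the body of a coding gene lay 34 members, 25 on the opposite strand of that gene and 9 on the same strand. Within 1 kb of more than 1 lincRNA gene lay 20 members, and for these the nearest TSS gave the name.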

How the data were processed

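H3K4me3 was measured by native ChIP-seq on micrococcal nuclease-digested amygdala nuclei. Per the submitters' processing notes and the methods, the authors aligned uniquely mapped reads to mm10 with Bowtie and called peaks against input with MACS2 2.1.0.20140616 (q below 0.1, fold enrichment above 1). The authors deposited 1 list for the 2 WT mice, with 1 bp summits and a score, taken as a −log10 q-value. Depth per summit is not given by the list. The 30 summits on Y, unplaced or mitochondrial sequences were set aside.

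Summits were assigned to GENCODE M21 TSSs (GRCm38, the same assembly as mm10) in Python 3.11.15 (numpy 2.4.6, pandas 2.3.3, scipy 1.17.1, pysam 0.24.0, samtools 1.23.1, matplotlib 3.10.9). Shares carry 95% Wilson intervals and medians order-statistic intervals. No p-value was computed, since the list pools its replicates. Functions were tested on simulated data. Members and gene lists were chosen with earlier results of these data known.

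Named genes were lincRNA genes on the lists, the 10 highest and 5 lowest members, the 5 farthest from a coding TSS, genes with 3 summits, 3 summits either side of each limit, the 5 highest in the lowest CpG group and the 5 highest within 5 kb of a coding TSS, with ties. Marked and unmarked microRNA and snoRNA hosts, genes with 2 summits, neighbours of transcription factor genes and members with a RefSeq mRNA were named after their values were seen, as were the windows of Meg3 and Neat1. Alternatives covered windows, TSSs, score thresholds, joining, biotypes and the CpG window.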

Additional observations from a re-analysis of the deposited data

How the results depend on the processing

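Of 74 values recomputed, 57 were labelled as staying within 1.5 times the main count or within the main value's 95% interval. All values from the outermost TSSs, from joining summits within 1 kb and from added RefSeq mRNA starts were among them. The RefSeq alternative was chosen after seeing the data. The share of pairs in which the coding promoter scored higher has no interval of its own. Its labels used a Wilson interval computed as if it were a share of the 557 members. That interval does not measure the spread of a share of pairs. The share of marked lincRNA genes was 8.86% with a 500 bp window, 11.5% with 3 kb, 9.11% with no coding TSS within 5 kb and 7.99% with scores of 10 or more. A minimum score of 10 also gave a median of 61.4 and a CpG-rich share of 29.5%, and a CpG window of 250 bp either side gave 28.2%. Keeping summits at or above the list median left 149 members and 2.88% of genes marked, with a median of 181.0, 61.0% of pairs higher at coding promoters, 50.3% CpG-rich, 79.2% downstream and 3.92% next to a listed transcription factor gene. These thresholds remove low scores by construction. Adding the other non-coding biotypes gave 972 members, of which 54.2% lay over 20 kb from a coding TSS. That share was 75.3% with no coding TSS within 5 kb, which removes near members by construction. The coding promoter summit scored higher in 61.0% to 77.8% of pairs under the alternatives run. No paired analysis was possible because the list pools the WT mice and holds no replicate values, and for the same reason no replicate could be left out. Depth per mouse is unknown, so a lincRNA gene without a summit may carry the mark below the detection limit.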
